A study of Rattus norvegicus with 8 samples.

Results

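The reserve zone of the rat femur growth plate was set against the perichondral, proliferative and hypertrophic zones. Its members are the 2 arrays labelled as reserve zone, out of 8 arrays in all. A gene was counted as higher or lower where both reserve arrays lay above, or below, all 6 other arrays. Each zone had 1 array at 42 days of age and 1 at 46 days, and the design text states that RNA of 3 rats was pooled. Sex, strain and any treatment are not stated in the labels, and neither is the way the zones were separated. The design text treats the ages as replicates, so n = 2 pools per zone, and the spread behind each p-value includes the step in age.

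The growth plate is the cartilage through which long bones lengthen. The reserve zone lies at its epiphyseal end and holds resting chondrocytes, slowly dividing cells that renew the columns of flat proliferative chondrocytes. These enlarge into hypertrophic chondrocytes, whose matrix mineralises and is then invaded by vessels, osteoclasts and marrow. The perichondral zone is the fibrous and cartilaginous rim. Resting chondrocytes make type II collagen and aggrecan and are a known source of parathyroid hormone-related protein, a signal that delays hypertrophy. Bone and marrow of the epiphysis border the reserve zone, so blood and bone cells are other cells that a dissected sample can hold.

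The widest gap above all other arrays belonged to S100a9, a neutrophil gene and the only one past the test. Other genes of neutrophils, platelets and osteoclasts were among the 15 widest gaps. These gaps were ranked among genes with both reserve arrays above a background level of 9.44, explained below. Only 2 of 16 resting chondrocyte genes met that filter, so the absence of this list from the 15 was largely set by it. The promoters of 4 genes with large gaps, and of an erythroid gene, are shown. The first is that of S100a9. Those shown are among the promoters that hold a motif of factors known from blood cells or the interferon response. That each holds one is therefore not a result. The promoters of Xdh, Ypel5, Caprin2, Arhgap18 and Steap4 held no such motif. Neither did those of the erythroid genes Hba-a3, Klf1 and Tfrc. Sequences are from RefSeq (build GRCr8). Each is the 150 bases before the gene's start, 5′ to 3′ on the gene's strand. Capitals mark a match, on either strand, to AGATAA (the GATA factor motif), TATAAA (the TATA box) or GAAA, any 2 bases and GAAA again (an interferon-stimulated response motif).
S100a9 (chr2:178490623-178490772, minus strand): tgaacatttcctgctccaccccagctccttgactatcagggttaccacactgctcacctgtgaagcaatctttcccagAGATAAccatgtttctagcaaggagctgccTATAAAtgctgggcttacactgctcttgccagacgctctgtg
B2m (chr3:129549180-129549329, plus strand): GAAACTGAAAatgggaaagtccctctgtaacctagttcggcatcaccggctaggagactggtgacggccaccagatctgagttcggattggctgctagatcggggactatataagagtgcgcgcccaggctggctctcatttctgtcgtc
Rsad2 (chr6:48788121-48788270, minus strand): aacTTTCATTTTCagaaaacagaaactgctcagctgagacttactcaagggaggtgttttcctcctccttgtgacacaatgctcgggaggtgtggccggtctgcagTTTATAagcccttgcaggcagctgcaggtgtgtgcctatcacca
Sp110 (chr9:93670660-93670809, minus strand): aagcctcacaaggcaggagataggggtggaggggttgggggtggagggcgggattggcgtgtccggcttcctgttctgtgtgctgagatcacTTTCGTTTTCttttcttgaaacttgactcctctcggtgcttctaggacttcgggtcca
Alas2 (chrX:22895300-22895449, plus strand): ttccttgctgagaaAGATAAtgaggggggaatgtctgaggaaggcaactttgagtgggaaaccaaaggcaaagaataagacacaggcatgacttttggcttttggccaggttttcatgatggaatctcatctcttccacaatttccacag
Of the 15 genes with the widest gap above the other arrays, 11 had a RefSeq promoter. Over 250 bases before the start, 3 of these 11 held the interferon-stimulated response motif (B2m, Rsad2 and Sp110), against 3.41% of all 33469 promoters. AGATAA was found in 3 of 11 (S100a9, Ska1 and RatNP-3b), against 10.3% of all promoters, and TATAAA in 3 of 11, against 12.9%. Of the 5 erythroid genes above all other arrays, 4 had a promoter, and Alas2 alone of these held AGATAA. A match describes the letters in these windows and shows no binding.

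The arrays share one scale, with a trimmed mean intensity between 500.08 and 500.16. Array medians of log2(intensity + 16) ran from 7.92 (reserve, 42 days) to 8.51, and values were then quantile normalized, so every value below is on that scale unless intensity is named. The number of arrays limits the precision. As a guide to background, the 0.95 quantile of 34 genes typical of other organs was 9.44, called the other-organ level here. RNA integrity was followed by the Gapdh control probe sets, whose 3′ signal over 5′ signal was 8.153 and 3.961 in the 42-day and 46-day reserve arrays, against 3.626 to 7.099 in the 6 others. For beta-actin the ratio was 4.646 and 2.325 in the same reserve arrays, against 0.557 to 4.592 in the others. For hexokinase it was 2.381 and 0.541, against 0.424 to 2.466. The part of RNA integrity in the results below was not tested.

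Among 14217 genes, each represented by its brightest probe set, 774 (5.44%) had both reserve arrays above all 6 others and 592 (4.16%) had both below. Over all 31042 probe sets these counts were 1315 (4.24%) above and 1496 (4.82%) below. The above probe sets were 46.8% of both groups together, and 58.5% (1638 above, 1162 below) with arrays centred on their median in place of quantile normalization. On the deposited scale the counts were 1158 above and 1893 below, a share of 38.0%. The median difference of all genes, reserve minus the mean of the 3 other zone means, was 0.10, and 54.2% of genes had a difference above 0. Centring on the median put it at 0.24 and the deposited scale at 0.01.

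In limma's fit with Benjamini-Hochberg adjustment, 1 of 31042 probe sets (0.00322%) passed an adjusted p below 0.05 against the mean of the other zones. It was S100a9, and 2098 probe sets (6.76%) had an unadjusted p below that threshold. Against single zones, 0 probe sets passed for reserve against perichondral, 7 (0.0226%) against proliferative and 7 (0.0226%) against hypertrophic arrays. By unadjusted p these counts were 1164 (3.75%), 2372 (7.64%) and 2515 (8.1%) in the same order. No probe set passed against all 3 zones, and 124 higher and 88 lower did so by unadjusted p. In simulations with log2 changes of 2, 4 and 6, the fit recovered 0%, 23.7% and 76.2% of 200 changed probe sets, so differences smaller than 4 were rarely detectable with this number of arrays.

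Without the 42-day hypertrophic array the count past the threshold was 27, all higher in reserve. It was 3 without the 42-day perichondral array and 2 without the 46-day hypertrophic array. Leaving out the 46-day reserve array gave 5, all lower in reserve, and leaving out the 42-day reserve array gave 0, with 888 at the unadjusted threshold. Fewer arrays are also easier to clear. Over all genes 13.3% were above and 12.2% below without the 42-day reserve array, and 17.6% above and 14.6% below without the 46-day one. Dropping the 42-day hypertrophic array gave 7.51% above, and dropping the 42-day perichondral array 8.24%. Counts of lists with an array left out, given below, are to be read beside these shares.

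S100a9 rose in the reserve zone. It encodes a subunit of calprotectin, the calcium-binding protein that fills neutrophils. Its level was 13.34 at 42 days and 13.56 at 46 days in reserve arrays, and 5.44, 8.55 and 10.13 as the lowest, median and highest of the 6 others. The reserve values do not overlap the others, and the highest of these was the 42-day hypertrophic array. The difference was 5.34 (SE 0.60), or 40.5-fold (limma, adjusted p = 0.00333), and it was 4.63 at 42 days and 6.04 at 46 days. By zone the difference was 4.69 against perichondral (adjusted p = 0.251), 7.55 against proliferative (adjusted p = 0.000438) and 3.78 against hypertrophic arrays (adjusted p = 0.215). With only the 46-day reserve array in the fit the adjusted p was 0.422, and with only the 42-day one it was 0.174, so either omission ended the call. More cells of a type and more RNA per cell cannot be told apart in these bulk samples.

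S100a8, the other subunit of calprotectin, had 13.56 and 13.60 in the reserve arrays, against 4.49, 5.43 and 12.10 as the lowest, median and highest of the others. Here 5 of the other arrays read at most 9.20, and the 42-day hypertrophic array alone read 12.10. The difference was 6.70 (SE 1.27, adjusted p = 0.188). RatNP-3b, a neutrophil defensin, had 11.50 and 12.91 in reserve arrays, against 8.65, 9.01 and 9.69 in the others. Its 6 other arrays lay within a narrow range near the other-organ level, and its difference was 3.16 (SE 0.54, adjusted p = 0.131). Sequence-similar defensin genes may share its probes.

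**Figure D1:**
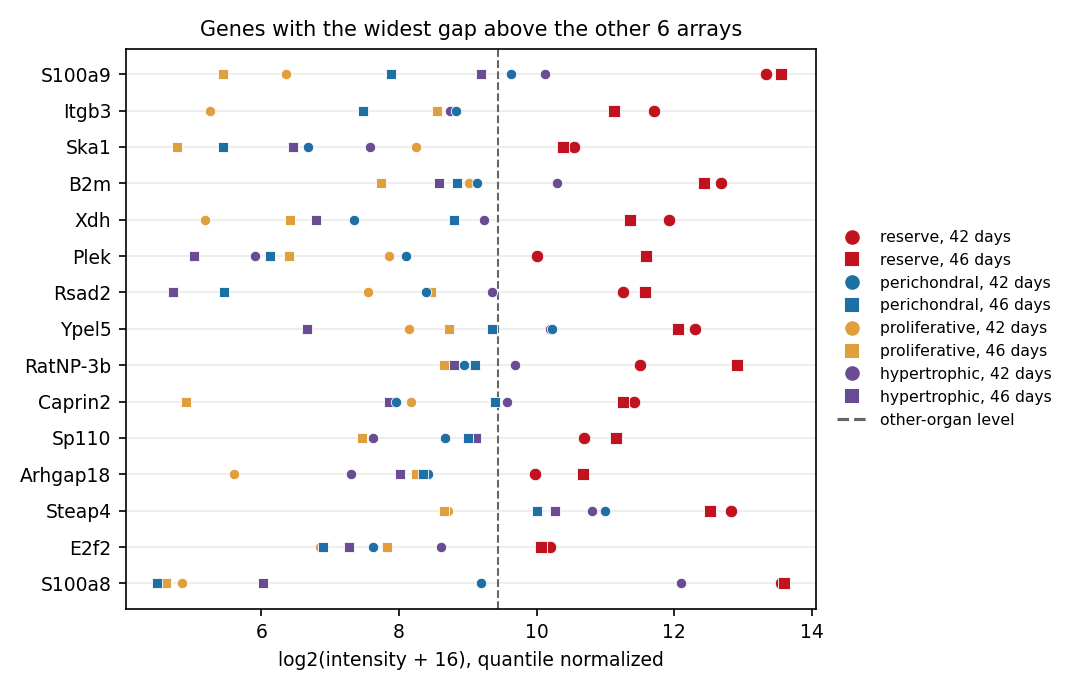
Normalized log2(intensity + 16) of the 15 genes with the widest gap between the lower reserve array and the highest of the 6 others, with 1 point per array (reserve in red, circles for 42 days and squares for 46 days) and the other-organ level of 9.44 as a dashed line. The gap runs from 3.21 for S100a9 to 1.45 for S100a8, and every reserve point lies right of the 6 others in its row.

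Beyond the neutrophil genes, the 15 widest gaps included genes of antigen presentation, the interferon response, osteoclasts, platelets and the cell cycle, and none but S100a9 passed the threshold. B2m, the light chain of class I antigen-presenting molecules, had 12.68 and 12.44 in reserve arrays, against 7.74, 8.93 and 10.30 as the lowest, median and highest of the others. It had the next lowest adjusted p of the 15 after S100a9 (difference 3.62, SE 0.57, adjusted p = 0.0903). Its other probe set was also above all 6, with a difference of 1.95. Rsad2, the interferon-induced antiviral enzyme viperin, had 11.25 and 11.58 in reserve arrays, against 4.72, 7.97 and 9.36 in the others (difference 4.09, SE 1.05, adjusted p = 0.454).

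Sp110, an interferon-induced nuclear body protein, had 10.69 and 11.16 in reserve arrays, against 7.46, 8.68 and 9.12 in the others (difference 2.50, adjusted p = 0.454). Its other probe sets disagreed, at -0.79 and -1.30. Of the 15 genes, 3 had further probe sets, and those of B2m and Ypel5 were also above all 6.

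Itgb3, the integrin beta 3 chain of osteoclasts and platelets, had 11.71 and 11.13 in reserve arrays, against 5.26, 8.55 and 8.83 in the others. All 6 other arrays were below the other-organ level, and the difference was 3.52 (SE 0.79, adjusted p = 0.331). Plek, pleckstrin, a protein kinase C substrate of platelets and leukocytes, had 10.01 and 11.59 in reserve arrays, against 5.02, 6.26 and 8.11 in the others (difference 4.23, adjusted p = 0.331). Its reserve arrays differed by 1.57 between the ages, the widest such step among these 15 genes.

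Steap4, a metalloreductase, had 12.82 and 12.52 in reserve arrays, against 8.65, 10.14 and 10.99 in the others. Its difference of 2.76 had the smallest standard error of the 15 (0.47, adjusted p = 0.131), and it passed against proliferative arrays alone (3.98, adjusted p = 0.0162), not against perichondral or hypertrophic arrays. Xdh, which makes uric acid in purine breakdown, had 11.93 and 11.36 in reserve arrays, against 5.18, 7.06 and 9.24 in the others (difference 4.35, adjusted p = 0.188).

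Ska1, a kinetochore protein of dividing cells, had 10.55 and 10.39 in reserve arrays, against 4.78, 6.57 and 8.25 in the others (difference 3.94, adjusted p = 0.454). E2f2, a transcription factor of S phase entry, had 10.20 and 10.07 in reserve arrays, against 6.86, 7.44 and 8.61 in the others (difference 2.62, adjusted p = 0.587). Both were below the other-organ level in all 6 other arrays. The remaining 3 were Ypel5 (3.29), the RNA-binding protein Caprin2 (3.35) and Arhgap18 (2.67), with adjusted p between 0.293 and 0.587. All 15 were also above all 6 others on the deposited intensities.

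Genes of cell types were also described as lists, which hold S100a8, S100a9 and Itgb3 of the 15 genes with the widest gap above. The leukocyte and marrow list had 25 measured genes, of which 6 (S100a8, S100a9, Cd68, Fcer1g, Lcn2 and Cybb) were above all 6 others and 0 below, beside 5.44% above among all genes. Its median difference was 1.33, against 0.10 over all genes, and only S100a9 passed the test. Cd68, a macrophage lysosomal protein, had 11.13 and 10.35 in reserve arrays, against 4.66, 5.40 and 9.64 as the lowest, median and highest of the others (difference 4.44, SE 1.14, adjusted p = 0.454). Fcer1g, the signalling chain of Fc receptors, had 12.33 and 10.92 in reserve arrays, against 5.31, 7.25 and 10.12 in the others (difference 4.32, adjusted p = 0.454). For both, the 42-day hypertrophic array was the highest of the others.

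The summed deposited intensity of the 25 leukocyte and marrow genes was 57693 and 47819 in the 42-day and 46-day reserve arrays, against 3900, 5560 and 27826 as the lowest, median and highest of the others. The highest of the others was again the 42-day hypertrophic array. In the 42-day and 46-day reserve arrays S100a8 gave 16300 and 13200 of these sums, and S100a9 gave 13900 and 12900. The reserve sums thus mostly repeat these genes, which were named for their gap above, and say little about the rest of the list. Without that array 11 of the 25 genes, and without the 46-day reserve array 10, lay above the others. The median level of the list was 9.13 and 8.69 in reserve arrays, under the other-organ level, against 6.29 to 8.58 in the others. In no array did 11 of the 25 reach that level, among them the neutrophil genes Camp, Itgam and Csf3r and also Lcn2. The part of marrow cells in the S100a9 difference was not tested.

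Of 11 erythroid genes measured, 5 were above and 0 below, beside 5.44% above and 4.16% below among all genes. Their median difference was 2.31, against 0.1 over all genes. Ahsp, a chaperone of alpha globin, had 10.99 and 12.14 in reserve arrays, against 5.44, 6.93 and 10.35 in the others (difference 4.08, SE 1.05, adjusted p = 0.454). Tfrc, the transferrin receptor that takes up iron, had 13.64 and 13.11 in reserve arrays, against 8.76, 10.10 and 12.75 in the others (difference 2.89, SE 0.68, adjusted p = 0.393). Its reserve levels were nearest to the 42-day perichondral array.

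Klf1, the master transcription factor of red cell genes, had 9.78 and 9.16 in reserve arrays, against 4.95, 5.78 and 8.59 in the others (difference 3.18, adjusted p = 0.646). Alas2, the first enzyme of haem synthesis in red cells, had 9.97 and 9.69 in reserve arrays, against 5.40, 7.72 and 8.36 in the others (difference 2.37, adjusted p = 0.676). The globin gene Hba-a3 completed the 5. Summed intensities of the erythroid genes were 33273 and 50801 in reserve arrays, against 3420, 5220 and 18205 as the lowest, median and highest of the others. Tfrc alone gave 16900 and 9460 of the reserve sums. Without the 42-day reserve array 8 of the 11 genes lay above the others.

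Of 10 osteoclast genes, 3 were above and 0 below, beside 5.44% above and 4.16% below among all genes. Their median difference was 2.49. In no array did 4 of the 10 (Calcr, Nfatc1, Clcn7 and Tnfrsf11a) reach the other-organ level. Acp5, the tartrate-resistant phosphatase that marks osteoclasts, had 9.83 and 9.48 in reserve arrays, against 5.01, 6.41 and 8.28 in the others (difference 3.18, SE 0.91, adjusted p = 0.557). Ctsk, the protease with which osteoclasts cut bone collagen, had 11.24 and 9.54 in reserve arrays, against 4.86, 8.15 and 9.35 in the others (difference 2.61, adjusted p = 0.646). Its 46-day reserve array was only 0.19 above the 42-day hypertrophic array. Itgb3 was the other member. Summed osteoclast intensities were 24393 and 13139 in reserve arrays, against 1461, 2691 and 8200 in the others. Without the 42-day hypertrophic array 6 of the 10 genes, and without the 46-day reserve array 5, lay above the others.

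Of 12 endothelial genes, 3 were above and 0 below, beside 5.44% above and 4.16% below among all genes. Their median difference was 1.08. Kdr, the main receptor for vascular endothelial growth factor, had 11.58 and 11.50 in reserve arrays, against 6.88, 9.54 and 10.62 in the others (difference 2.40, SE 0.57, adjusted p = 0.418). A second Kdr probe set had a difference of 0.02. Emcn, a surface protein of vessels, had 10.25 and 9.59 in reserve arrays, against 8.40, 8.62 and 9.39 in the others (difference 1.19). Tie1, an endothelial receptor kinase, lay below the other-organ level in all 8 arrays (difference 1.36), as did 8 of the 12 genes. Without the 42-day reserve array 7 of the 12, and without the 42-day perichondral array 5, lay above the others.

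**Figure D2:**
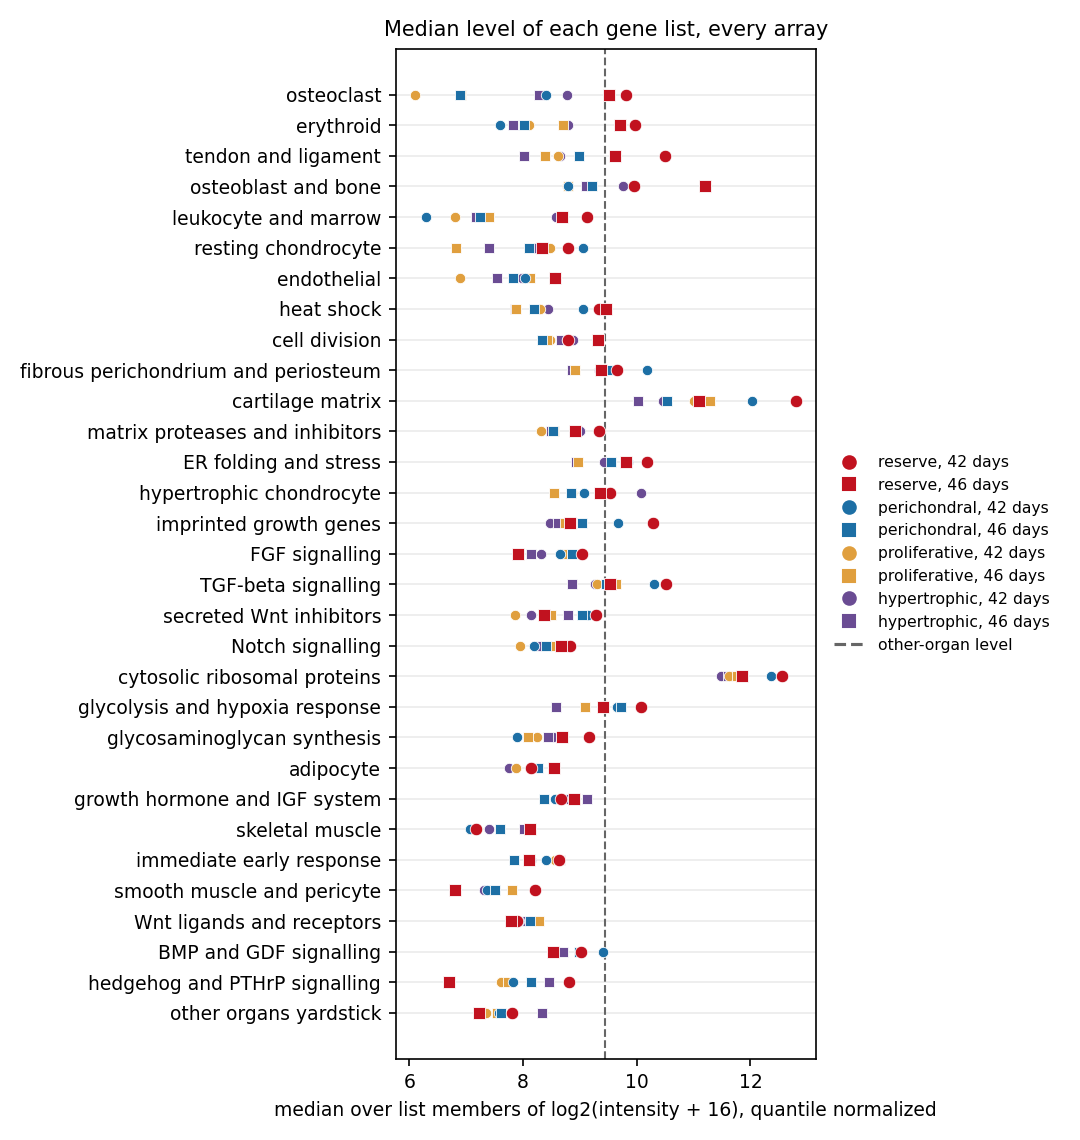
Median normalized log2(intensity + 16) over the measured members of each gene list, with 1 point per array, lists ordered by their median difference from osteoclast (2.49) downward and the other-organ level dashed. Both reserve points lie right of the 6 others in 7 lists (osteoclast, erythroid, osteoblast and bone, leukocyte and marrow, endothelial, heat shock and, at 8.68 for the lower reserve array against 8.67, glycosaminoglycan synthesis), while in the resting chondrocyte list the 42-day perichondral array (9.05) lies right of both reserve points (8.80 and 8.34).

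Genes of bone mostly had positive differences, but their arrays overlapped. Of 12 osteoblast and bone genes, 11 had a difference above 0, beside 54.2% of all genes, and the median was 1.76. Yet 0 were above all 6 others, beside 5.44% above and 4.16% below among all genes. That 0 rests on single arrays, since 7 of the 12 lay above without the 42-day hypertrophic array and 4 without the 42-day reserve array. Their summed intensity was 185863 and 153039 in reserve arrays, against 7587, 40393 and 283401 in the others, with the 42-day hypertrophic array above both reserve arrays. Col1a1, the main bone and fibrous collagen, had 15.80 and 15.66 in reserve arrays, against 9.24, 12.18 and 16.09 in the others (difference 3.19, SE 0.89, adjusted p = 0.541). The 42-day hypertrophic array was again higher. Sost, the osteocyte Wnt inhibitor sclerostin, was the exception in the list. It lay below all 6 others by 0.01 (difference -1.74) but was below the other-organ level in all 8 arrays.

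Of 33 genes of the fibrous perichondrium and periosteum list, 21 had a difference above 0, beside 54.2% of all genes. The only one above all 6, beside 5.44% of all genes, was S100a4, a calcium-binding protein of fibroblasts and leukocytes. It had 9.94 and 9.73 in reserve arrays, against 5.31, 7.07 and 8.40 in the others (difference 2.88, adjusted p = 0.589). All 6 tendon and ligament genes overlapped, with a median difference of 1.89 (3 above without the 46-day reserve array), and 2 of the 6, Tnmd and Scx, did not reach the other-organ level in any array. Smooth muscle (median difference -0.09), skeletal muscle (0.08) and adipocyte genes (0.17) were near the median of all genes. None of these 3 lists had a member above all 6. Each had 1 below, beside 4.16% of all genes, namely Acta2, Myl11 and Lep. All 3 genes stayed under the other-organ level in every array.

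The label was checked against genes known from resting chondrocytes. Of 16 measured, 1 was above all 6 others and 0 below, beside 5.44% above and 4.16% below among all genes. In no array did 10 of the 16 reach the other-organ level. The member above was Apoe, a lipid carrier, with 8.82 and 9.09 in reserve arrays, against 5.12, 7.37 and 8.63 in the others, all under the other-organ level (difference 1.95, adjusted p = 0.738). Its other probe set had a difference of 0.17 and was not above all 6. The median difference of the list was 1.14. Taken against each zone on its own, the median was 0.02 for perichondral, 0.58 for proliferative and 1.35 for hypertrophic arrays. Without the 42-day reserve array the list's median was 0.07, and without the 46-day one 6 of the 16 lay above the others and 1 below. On this list the reserve arrays thus read much like the perichondral arrays.

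Ucma, a secreted protein of resting chondrocytes, had 15.86 and 14.02 in reserve arrays, against 15.80 and 14.99 in perichondral, 14.19 and 12.90 in proliferative and 9.16 and 9.39 in hypertrophic arrays. It was high in both reserve and perichondral arrays, which overlap, and it passed against hypertrophic arrays alone (5.67, adjusted p = 0.00665). Against the mean of the other zones its difference was 2.20 (SE 0.57, adjusted p = 0.454). The Wnt inhibitors Sfrp5 and Wif1, both known from resting cartilage, had differences of 2.17 and 1.97 (adjusted p = 0.754 and 0.757). Sfrp5 read 9.34 and 7.72 in reserve arrays and Wif1 read 8.90 and 8.65. Both were overlapped by the 42-day perichondral array (8.76 and 9.01), and both stayed under the other-organ level in every array.

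The median level of the cartilage matrix genes was above the other-organ level in every array, from 10.02 to 12.81. Not every member was bright, since 12 of the 19 had both reserve arrays above that level and Chst11 reached it in no array. Of 19 measured, 0 were above and 0 below, beside 5.44% above and 4.16% below among all genes. The median difference was 0.62. Without the 42-day reserve array the median was 0.11 and 0 were above, while without the 46-day one it was 1.07 and 13 of the 19 were above. Col2a1, the collagen of cartilage, had 17.58 and 17.40 in reserve arrays, against 15.86, 17.31 and 17.80 in the others (difference 0.33, SE 1.02, adjusted p = 0.963). Acan, aggrecan, had 14.12 and 12.03 in reserve arrays, against 10.66, 12.44 and 13.08 in the others, so that its reserve arrays lay on either side of most others (difference 0.84, SE 0.58). Without the 42-day reserve array the difference of Acan was -0.20.

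Of 16 genes in the hypertrophic chondrocyte list, 1 was above (Enpp1) and 1 below (S100a1), beside 5.44% above and 4.16% below among all genes. The median difference of the list was 0.58. Col10a1, the collagen made by hypertrophic chondrocytes, had 11.78 and 10.88 in reserve arrays, against 10.94, 13.72 and 16.93 in the others (difference -2.53, SE 0.58, adjusted p = 0.357). It fell against hypertrophic arrays (-4.77, adjusted p = 0.0233), while against proliferative arrays the difference was -0.45 (adjusted p = 0.91).

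Mmp13, a collagenase of late hypertrophic chondrocytes and osteoblasts, had the opposite pattern. It read 14.75 and 14.73 in reserve arrays, against 8.57, 10.93 and 14.73 in the others, and its lower reserve array tied with the 42-day hypertrophic array. It therefore lay just outside the rule, with a gap of 0. The difference was 3.43 (SE 0.54, adjusted p = 0.0903), and it rose against proliferative arrays (6.13, adjusted p = 0.000948). Against hypertrophic arrays the difference was 0.33 (adjusted p = 0.932).

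Enpp1, which makes the mineralisation inhibitor pyrophosphate, had 9.03 and 8.06 in reserve arrays, against 5.01, 5.38 and 7.33 in the others, all below the other-organ level (difference 2.86, adjusted p = 0.599). S100a1, a calcium-binding protein, had 7.95 and 8.07 in reserve arrays, against 8.39, 9.26 and 9.82 in the others (difference -1.11, adjusted p = 0.772). Both its reserve arrays and all but 2 of the others were under the other-organ level. Ihh, the hedgehog signal of prehypertrophic cells, read 5.62 and 5.72 in reserve arrays, against 5.14, 6.49 and 9.03 in the others, under the other-organ level throughout (difference -0.94). Pth1r, the receptor for parathyroid hormone-related protein, had a difference of -0.21 (adjusted p = 0.955) and Fgfr3, a receptor that restrains growth, 0.35 (adjusted p = 0.905). Leaving out 1 reserve array turned both signs, and a second Fgfr3 probe set lay below all 6 others (-1.31).

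**Figure D3:**
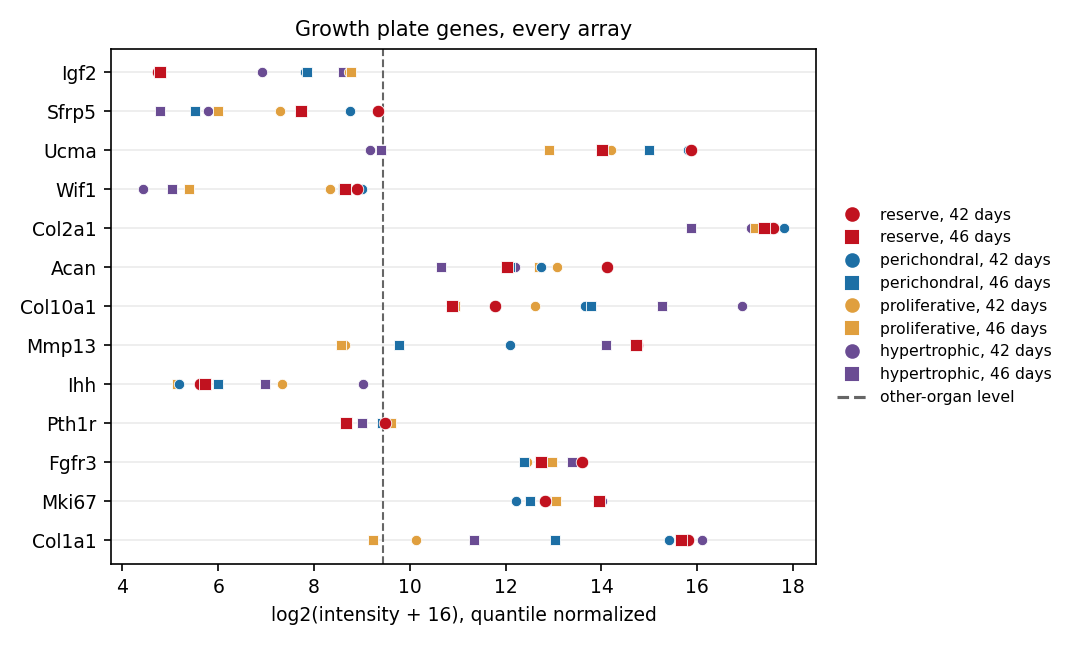
Normalized log2(intensity + 16) of the 13 measured growth plate genes fixed by name, with 1 point per array and the other-organ level of 9.44 dashed. Reserve and 42-day hypertrophic arrays share the top of Mmp13 at 14.73 to 14.75, and both reserve points of Igf2, at 4.74 and 4.79, lie left of the 6 others.

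Among 26 cell division genes, 2 were above (Rrm1 and Cdk1) and 1 below (Aurkb), beside 5.44% above and 4.16% below among all genes. The median difference was 0.63. Without the 42-day reserve array 15 of the 26 were above and 1 below (median 1.18), and without the 46-day one 4 were above and 5 below (median -0.11). Rrm1, the large subunit of the enzyme that makes DNA precursors, had 9.64 and 10.12 in reserve arrays, against 5.31, 7.40 and 8.87 in the others (difference 2.66, adjusted p = 0.676). Cdk1, the kinase that starts mitosis, had 9.64 and 9.99 in reserve arrays, against 7.85, 8.58 and 9.48 in the others (difference 1.17, adjusted p = 0.763). Aurkb, a mitotic kinase, lay below by 0.04 and under the other-organ level in all arrays (difference -2.27). Mki67, a marker of cycling cells, had 12.83 and 13.94 in reserve arrays, against 12.22, 12.84 and 14.02 in the others, and its difference was -0.20 at 42 days and 1.14 at 46 days.

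Protein folding genes of the endoplasmic reticulum had 3 of 19 above and 1 below, beside 5.44% above and 4.16% below among all genes. Their median difference was 0.61, and without the 46-day reserve array 9 were above and 3 below. Hsp90b1, a folding chaperone, had 10.77 and 10.54 in reserve arrays, against 8.10, 9.11 and 9.84 in the others (difference 1.64, SE 0.54, adjusted p = 0.621). Hspa5, the chaperone BiP, had 11.28 and 11.80 in reserve arrays, against 6.52, 10.20 and 11.23 in the others. Its 42-day reserve array was 0.05 above the 42-day perichondral array (difference 1.92, adjusted p = 0.685). Atf4, a stress transcription factor, had a difference of 1.78, and Ddit3, its target in prolonged stress, was below all 6 (-0.63) and under the other-organ level throughout. Of 12 heat shock genes, the co-chaperone Dnajb1 was the 1 above (difference 1.68), and the median was 0.93. Without the 46-day reserve array 4 of the 12 were above.

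Signalling lists held few genes outside the range of the other arrays. Of 19 Wnt ligands and receptors, 0 were above and 3 below, beside 5.44% above and 4.16% below among all genes. Their median difference was -0.19 (0.11 without the 46-day reserve array). The 3 below were the ligands Wnt7a (-2.19) and Wnt2 (-0.69) and the receptor Fzd2 (-1.65), all under the other-organ level in all 8 arrays. Of 9 secreted Wnt inhibitors, 0 were above and 1 below (Sost), with a median of 0.32, which was -0.51 without the 42-day reserve array. In the hedgehog and PTHrP list of 10, the signal transducer Smo was above and the co-receptor Cdon below. Cdon had 7.99 and 7.82 in reserve arrays, against 8.29, 9.38 and 10.85 in the others (difference -1.62, SE 0.67, adjusted p = 0.712). Smo had 10.04 and 7.92 in reserve arrays, against 5.91, 6.86 and 7.51 in the others (difference 2.24), but its other probe set had -0.86.

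Of 16 TGF-beta genes, 1 lay above and 1 below all 6 others, beside 5.44% above and 4.16% below among all genes. Tgfbr1, the signalling receptor, had 11.11 and 11.58 in reserve arrays, against 8.06, 9.89 and 10.66 in the others (difference 1.60, SE 0.55, adjusted p = 0.649), but another probe set lay below all 6 (-0.92). Tgfbr3, a co-receptor, had 8.58 and 8.64 in reserve arrays, against 9.08, 9.41 and 9.70 in the others (difference -0.82, adjusted p = 0.803). Its other probe set had a difference of 0.45. The other probe set of each receptor thus had the opposite sign, and the median difference of the list was 0.35. Of 15 FGF genes, the feedback inhibitor Spry2 was above (0.51) and the growth factor Fgf7 below (-2.41, adjusted p = 0.685). Fgf7 read 5.15 and 5.58 in reserve arrays and 6.74 to 8.71 in the others, all under the other-organ level.

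Of 24 BMP and GDF genes 0 were above and 0 below (median difference -0.23), and of 12 Notch genes likewise 0 and 0 (0.31). Among all genes 5.44% were above and 4.16% below, so lists of this size hold few such genes in any case. The growth hormone and IGF list of 16 had 1 below, Igf2, a fetal growth factor, with 4.74 and 4.79 in reserve arrays, against 6.91, 8.23 and 8.78 in the others (difference -3.35, SE 0.93, adjusted p = 0.529). All 8 values were under the other-organ level, and the 3 other Igf2 probe sets had -0.11, 0.34 and -0.10. Igf2 was also the 1 gene below among 14 imprinted growth genes, of which 0 were above.

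Of 29 matrix proteases and inhibitors, 2 were above (Ctsk and Adamts9, a protease that cuts proteoglycans, at 1.21). The stromelysin Mmp3 (-1.02) was the 1 below, and the median was 0.61. Over all genes 5.44% were above and 4.16% below. Of 23 glycosaminoglycan synthesis genes, Xylt2, which starts the sugar chains, was the 1 above (3.24), though its other probe sets read 1.48 and -1.10. Immediate early genes had 1 of 18 above (Zfp36, which destabilises cytokine mRNA, at 2.23) and 1 below (Klf6), with a median of -0.05. Glycolysis and hypoxia genes (22 measured, median 0.20) and cytosolic ribosomal proteins (27 measured, median 0.28) had 0 above and 0 below.

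Genes below all other arrays were taken from those whose 6 other arrays were all above the other-organ level. The 15 widest gaps among them ran from 0.50 to 0.75. The 15 above were chosen by another filter, on the reserve arrays, so the sizes of both sets of gaps are not comparable, and dim genes outside it had wider gaps below (2.11 for Igf2 and 1.15 for Fgf7). Their differences ran from -2.32 to -0.99, and none passed the threshold (adjusted p 0.454 to 0.757). Fbxo39, an F-box protein of ubiquitin ligases, had 7.09 and 9.07 in reserve arrays, against 9.76, 10.43 and 11.02 as the lowest, median and highest of the others (difference -2.32, SE 0.58, adjusted p = 0.454). Its 42-day array lay 1.98 below its 46-day array.

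Insr, the insulin receptor, had 8.87 and 8.47 in reserve arrays, against 9.45, 9.99 and 10.55 in the others (difference -1.33, SE 0.52, adjusted p = 0.689). Its other probe set had a difference of 0.14. Klf6, a zinc finger transcription factor of the early response, had 10.47 and 11.16 in reserve arrays, against 11.75, 12.07 and 12.83 in the others (difference -1.40, SE 0.43, adjusted p = 0.589). It was highest in both hypertrophic arrays. Of its further probe sets 1 was also below all 6, at -0.76, and the other had 0.41.

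Mecom, a transcription factor known from blood stem cells, had 10.64 and 11.96 in reserve arrays, against 12.47, 12.68 and 13.13 in the others (difference -1.45, adjusted p = 0.628). Tbl1xr1, a part of nuclear receptor corepressor complexes, had the widest gap, with 9.71 and 10.04 in reserve arrays, against 10.79, 11.17 and 11.44 in the others (difference -1.27, adjusted p = 0.65). Its 4 other probe sets had -0.51, 1.40, -0.94 and 0.73. Camk2n1, an inhibitor of calmodulin-dependent kinase II, had 9.80 and 10.76 in reserve arrays, against 11.48, 11.70 and 12.58 in the others (difference -1.54), and its other probe set had 1.89.

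The long noncoding RNA Snhg11 had a difference of -1.46, the junction protein Cldn6 -1.19 and the neuronal surface protein Lingo2 -1.44. The transcription factor Gata6 had -1.10 and the muscle transcription factor Myf6 -1.18. Zbtb6 (-1.10), Mcts2 (-1.09), Dynlt2b (-1.19) and Fam181b (-0.99) made up the rest. Of the 15 genes, 11 had further probe sets. In 3 of these 11 (Tbl1xr1, Snhg11 and Klf6) another probe set was also below all 6, and in 9 another probe set had a difference above 0.

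**Figure D4:**
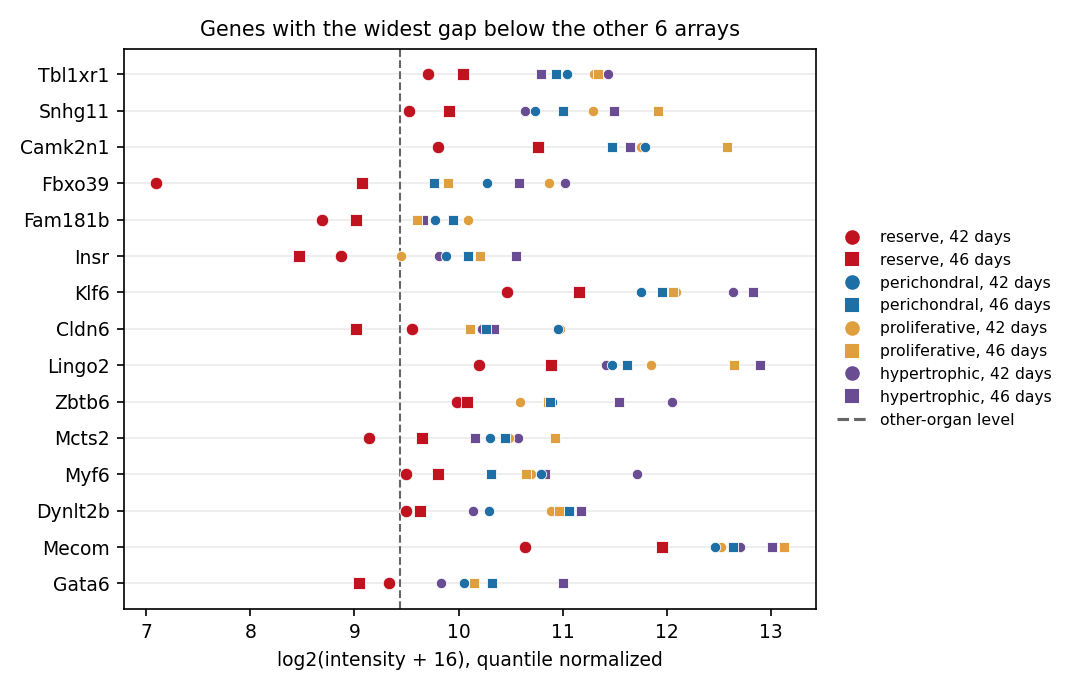
Normalized log2(intensity + 16) of the 15 genes with the widest gap between the higher reserve array and the lowest of the 6 others, with 1 point per array and the other-organ level of 9.44 dashed. The gaps run from 0.75 for Tbl1xr1 to 0.50 for Gata6, and both reserve points lie left of the 6 others in every row.

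At the limit of the rule, the members just inside the higher group among bright genes were Ran, Macf1 and Nme2, with gaps of 0.001, 0.002 and 0.003. Mmp13, Srp19 and Cp lay just outside, at 0, -0.001 and -0.001. For the lower group Snx27, Zfp280c and Ncam1 were just inside, at 0.010, 0.011 and 0.014, and Tmem80, Lpar1 and Zfand4 just outside, at -0.001, -0.002 and -0.004.

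The reserve arrays also differed from each other. Of 3522 genes whose reserve mean was above the other-organ level, 920 (26.1%) differed more than 2-fold between 42 and 46 days, beside 23.4% in perichondral, 32.0% in proliferative and 38.5% in hypertrophic arrays. Across the brightest 0.2 of probe sets the reserve arrays correlated with r = 0.769, the 46-day reserve array with the 42-day and 46-day perichondral arrays at 0.773 and 0.780, and the 42-day reserve array with the 42-day perichondral array at 0.765. Both reserve arrays were least like the 46-day hypertrophic array, at 0.357 and 0.478. These correlations are across probe sets of single arrays, which share the array design and probe brightness, and probe sets are not independent replicates.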

How the data were processed

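Total RNA of rat femur growth plate zones was measured on 8 Affymetrix arrays, 2 per zone. Per the labels' protocols, RNeasy extraction was followed by Nugen Ovation labelling with biotin. The deposited values are linear intensities for 31099 probe sets. Per the submitters' processing notes MAS5, GCOS and RMA were used, with no version or role given, and no scan or slide is named. Detection calls were not used here.

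After leaving out 57 control probe sets, 31042 were analysed as log2(intensity + 16). Array medians differed by more than 0.1, so values were quantile normalized. A fold is on this scale, which understates differences of dim genes. Of the probe sets 20826 had 1 gene symbol in the platform annotation, 436 had several and 9780 had none; 20758 matched RefSeq by gene identifier, and no symbol changed. Genes were represented by the probe set with the highest mean.

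The 8 arrays entered one limma 3.58.1 model (R 4.3.3) with a mean per zone and trended empirical Bayes variances, on 4 residual and 12.58 prior degrees of freedom. P-values were adjusted by Benjamini-Hochberg across the whole array, with a threshold of 0.05. Ages served as replicates 1 (42 days) and 2 (46 days). The fit was tested on simulated data, with 5 simulations for each size of change. Gene lists were described by counts and medians, with no set test.

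Genes were named by a rule: the 15 with the widest gap above (of 402 with both reserve arrays above the other-organ level) and below (of 112 with all 6 others above it), those past the threshold, up to 4 members per list whose arrays did not overlap, and 16 growth plate genes, of which 13 were measured. Genes named to complete a count of a list or at the limit of the rule lie outside it. Lists and members were chosen with earlier results of these data known. Alternatives were other normalizations, pseudocounts of 1 and 64, a filter on dim probe sets, age as a block, each array left out, each zone left out of the mean, the other arrays pooled and a constant prior variance.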

Additional observations from a re-analysis of the deposited data

Results flagged for a closer look

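In 3 gene lists the median level in reserve arrays, minus the mean of the other zones' medians, had opposite signs at the 2 ages. With 1 array per zone and age this difference was not tested. The hedgehog and PTHrP list was 1.09 higher at 42 days and had -1.42 at 46 days. The 46-day reserve median of its 10 genes, 6.70, was the lowest of the 8 arrays, and 4 of the 10 did not reach the other-organ level in any array. The secreted Wnt inhibitors had 0.91 at 42 days and -0.41 at 46 days. The FGF list had 0.44 at 42 days and -0.66 at 46 days, and 10 of its 15 genes did not reach that level in any array. Zones have 2 arrays each, too few for a check of single arrays that stand apart.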

How the results depend on the processing

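The count past the threshold (1) was 2 on the deposited scale, 3 with the perichondral or the hypertrophic zone left out of the mean, 0 with the proliferative zone left out, 0 with the other arrays pooled and 0 with a constant prior variance (1722, 1987 and 2033 in the same order by unadjusted p). Leaving out each array in turn gave 0 to 27. With age as a replicate block it was 22, of which 21 were higher. B2m, S100a8, RatNP-3b, Steap4, Mmp13 and Tfrc were among the higher. Whether zones of one age share rats is not stated. The 46-day minus 42-day difference correlated between zones at r = 0.0225 to 0.0806 over all probe sets, under the 0.1 asked of a pairing. By that rule age was not used as a pairing in the values reported. Over the brightest 0.2 the correlations ran from 0.0581 to 0.3101, and reserve with perichondral had 0.259. They therefore do not settle whether a pairing holds, and the count depends on that choice. The count past the threshold against each of the 3 zones (0) was 1 with the replicate block and 0 to 1 with arrays left out. S100a9 lost its call with the proliferative zone left out (adjusted p = 0.15), with the other arrays pooled (0.119) and with a constant prior variance (0.623), and its adjusted p ran from 0.000337 to 0.623 over all settings. With dim probe sets left out, 696 probe sets were above and 586 below all 6 others. Leaving out each array in turn gave 1553 to 4417 above and 1840 to 5141 below, since fewer arrays have to be cleared. Causes of the other moves were not tested. Over the arrays left out, the difference ran from -0.20 to 1.88 for Acan, -0.08 to 0.78 for Fgfr3, -0.60 to 0.20 for Pth1r and -0.09 to 1.03 for Mki67; Acan and Fgfr3 turned without the 42-day reserve array, Pth1r and Mki67 without the 46-day one. The difference of Col2a1 was -0.01 with the hypertrophic zone left out. In all, values of the named genes kept their direction and side of the threshold in 1529 cases, passed it in 19, lost it in 5 and turned in 5. The median difference of 16 of 30 gene lists kept its sign in every setting run, and that of 14 turned in at least 1.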
